A study of Mus musculus with 20 samples.

Results

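The 10 genes described here, Glul, Axin2, Lgr5, Tbx3, Rhbg, Oat, Slc1a2, Cyp2e1, Lect2 and Slc13a3, are transcripts of hepatocytes around the central vein whose level is tied to Wnt and beta-catenin signalling. Every probe set whose platform annotation gave one of these symbols was taken, which made 24 of the 45037 probe sets on the array and 10 of 18193 genes. The RNA came from the left lateral liver lobe of male CD1 mice, an outbred stock, taken on the day after the last of a series of daily oral doses. The groups were phenobarbital sodium (PB) at 80 mg/kg/day for 28 days, its vehicle methylcellulose 15 (CMC, 0 mg/kg/day of the drug) for 28 days, PB for 90 days and CMC for 90 days. Each group held 5 mice assigned at random, and each of the 20 livers came from 1 mouse and was measured on 1 array. Strain, sex and daily handling by mouth are shared by all 4 groups, and no allele, second agent or age was given in the sources used here.

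In the liver lobule, endothelial cells of the central vein release Wnt ligands and R-spondin 3, which act on neighbouring hepatocytes through Frizzled, LRP and LGR receptors. Beta-catenin then escapes its destruction complex, enters the nucleus and works with TCF/LEF factors to maintain the pericentral programme of glutamine synthesis, ammonia and glutamate uptake and cytochrome P450 expression. Phenobarbital, an indirect activator of the constitutive androstane receptor, induces P450 enzymes in hepatocytes and on prolonged dosing promotes mouse liver tumours with activated beta-catenin. The comparison of PB with CMC livers at each duration therefore bears on the level of pericentral Wnt target transcripts in non-tumour liver under drug.

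All values below are log2 RMA signal intensities, with group means given ± SD over 5 mice. Dosing was visible in the P450 genes Cyp2b10 and Cyp2c55, textbook targets of the constitutive androstane receptor. Cyp2b10 rose by 4.90 log2 units at 28 days (limma adjusted p = 0.000572) and by 5.88 at 90 days (limma adjusted p = 2.79e-05), and Cyp2c55 rose by 5.35 and 5.18 (limma adjusted p = 1.15e-09 and 2.16e-09). On the first principal component, which held 55.6% of the variance among arrays, 2 PB arrays stood apart: replicate 5 at 28 days scored -107.9 and replicate 3 at 90 days -65.2, against -39.8 for the next array. All 4 measured hepatocyte markers exceeded background on every array, and their mean level ranged over 13.48 to 14.34 in PB and 14.04 to 14.45 in CMC livers at 28 days, and over 13.90 to 14.52 in PB and 14.29 to 14.38 in CMC livers at 90 days. Each array averages over all cells of the lobe, so fewer cells of a type and less RNA per cell cannot be told apart.

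The promoters of 7 members, from 250 bases before to 50 bases after the start, were held in the RefSeq table used, on build GRCm38.p6; Lgr5, Tbx3 and Rhbg were not among them. Each was searched on both strands for 4 spellings of the site that TCF/LEF factors bind, and capitals mark a match. The spelling CTTTGAT stood in the windows of Lect2 and Slc1a2 and in 3.73% of all 32851 promoter windows in the table. The spelling CTTTGAA stood in the window of Cyp2e1 and in 5.14% of all windows. None of the 7 members held CTTTGTT, found in 5.85% of all windows, and none held the spelling CTTTGTA, found in 3.63%. Together 3 of the 7 windows, and 16.9% of all windows, held a match to any of the 4. The windows of these 3 genes are shown with that of Oat, which had no match and, after Lect2, the smallest unadjusted p of the averaged effect. They lie at chr13:56548489-56548788 on the minus strand for Lect2, chr2:102706188-102706487 on the plus strand for Slc1a2, chr7:140763569-140763868 on the plus strand for Cyp2e1 and chr7:132576349-132576648 on the minus strand for Oat.
Lect2: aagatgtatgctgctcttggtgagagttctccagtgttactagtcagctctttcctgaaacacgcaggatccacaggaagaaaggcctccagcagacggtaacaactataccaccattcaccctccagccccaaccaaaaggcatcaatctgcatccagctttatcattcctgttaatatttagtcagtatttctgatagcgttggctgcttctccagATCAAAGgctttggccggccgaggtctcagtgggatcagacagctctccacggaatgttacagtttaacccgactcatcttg
Slc1a2: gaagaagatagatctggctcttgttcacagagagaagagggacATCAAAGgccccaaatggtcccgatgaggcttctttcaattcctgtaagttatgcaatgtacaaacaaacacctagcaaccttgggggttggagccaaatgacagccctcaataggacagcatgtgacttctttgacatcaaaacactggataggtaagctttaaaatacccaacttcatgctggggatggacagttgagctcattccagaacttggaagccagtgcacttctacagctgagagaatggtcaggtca
Cyp2e1: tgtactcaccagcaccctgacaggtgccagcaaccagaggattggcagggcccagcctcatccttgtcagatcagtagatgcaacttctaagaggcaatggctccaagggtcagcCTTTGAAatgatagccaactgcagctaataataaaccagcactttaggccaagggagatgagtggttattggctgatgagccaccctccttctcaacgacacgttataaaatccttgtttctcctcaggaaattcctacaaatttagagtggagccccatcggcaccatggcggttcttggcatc
Oat: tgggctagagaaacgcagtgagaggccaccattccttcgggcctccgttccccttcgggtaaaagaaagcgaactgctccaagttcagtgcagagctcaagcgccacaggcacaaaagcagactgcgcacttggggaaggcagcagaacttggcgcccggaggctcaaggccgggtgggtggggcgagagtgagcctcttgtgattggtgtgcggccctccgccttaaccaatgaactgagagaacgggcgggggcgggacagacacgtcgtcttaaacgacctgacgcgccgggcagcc
In Lect2 the match, read as ATCAAAG on the strand shown, began at base -32 from the start; in Slc1a2 it read the same and began at -207, and in Cyp2e1 the match CTTTGAA began at -135. A match describes letters in this window and no more.

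No member passed the test between PB and CMC livers. At 28 days 0 of 10 members had a limma adjusted p under 0.05, where 0.0498% of the 16054 genes tested did, and 0 had an unadjusted p under 0.05, where 2.86% of all genes did. At 90 days 0 of 10 were called, where 0.143% of all genes were. At an unadjusted p under 0.05, 1 member was higher (Lect2) and 2 were lower (Tbx3 and Oat) in PB livers, where 3.15% of all genes were higher and 1.38% lower. Averaged over both durations 0 of 10 were called (0.212% of all genes), and at an unadjusted p under 0.05 Lect2 was higher and Oat and Lgr5 were lower (4.24% of all genes higher and 2.37% lower). The differences of 7 members at 28 days and 8 at 90 days were below 0, where 50.4% and 43.8% of all genes were. The median of the members was -0.10 log2 units at 28 days and -0.26 at 90 days, against 0.00 and 0.03 over all genes. Members varied together among mice, so their signs are not independent. With the first principal component as a covariate, Slc1a2 (0.0078), Cyp2e1 (0.0097) and Slc13a3 (0.094) turned above 0 at 28 days. At 90 days Axin2 (0.18), Cyp2e1 (0.040) and Slc13a3 (0.37) did so in that fit. The averaged effect is made from the same arrays as the single durations and adds no new mice.

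**Figure D1:**
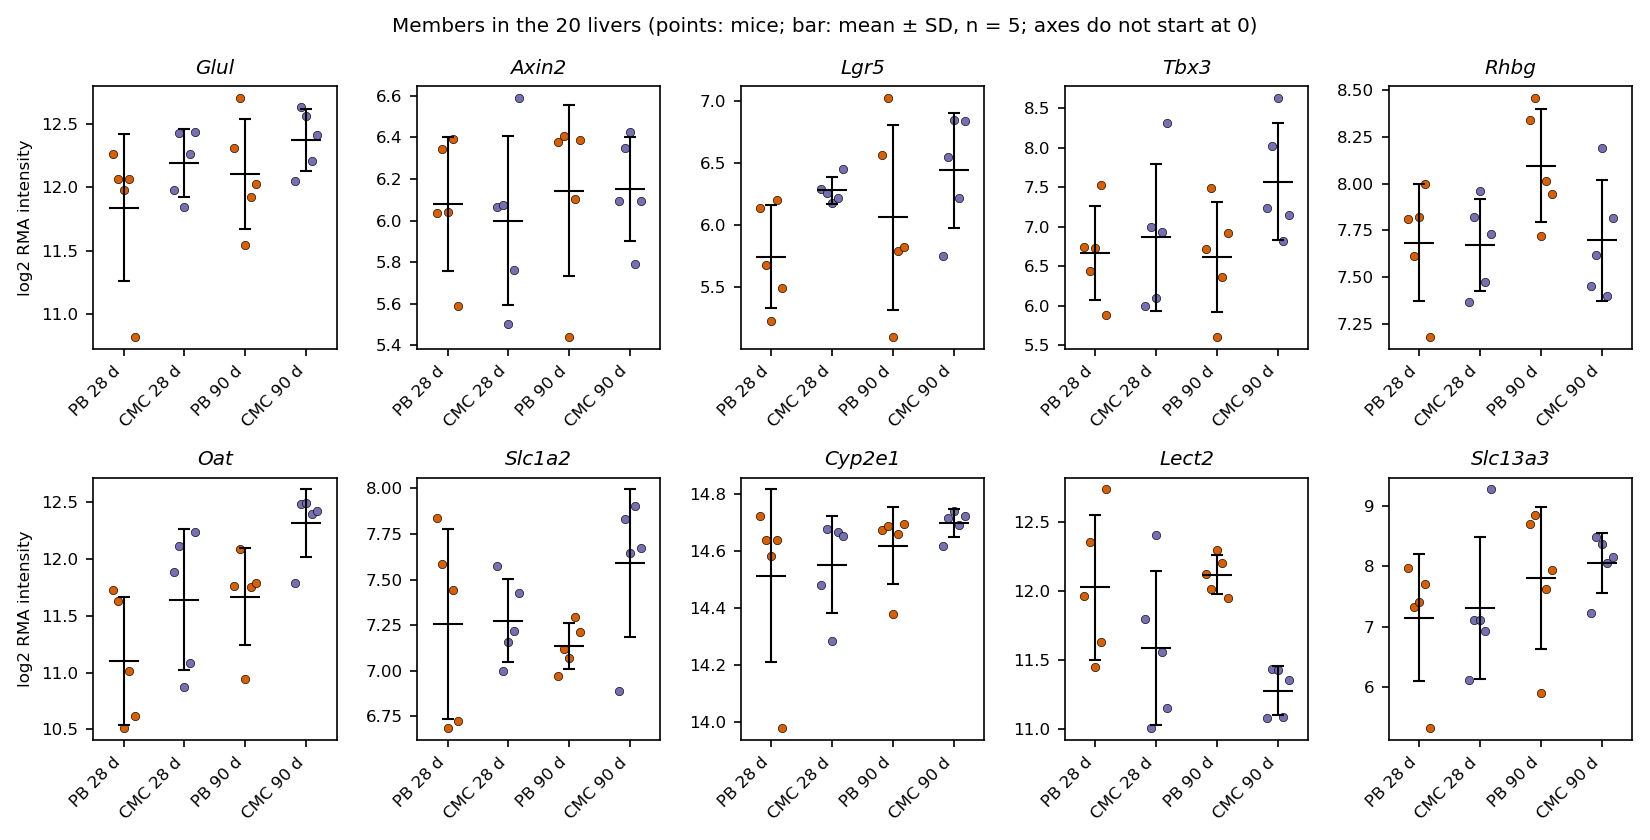
Log2 RMA intensity of the 10 members in each mouse (points) by group, with the mean and SD (bars, n = 5). Lect2 at 90 days is the panel in which PB and CMC mice do not overlap (11.95 to 12.30 in PB, 11.08 to 11.43 in CMC), and PB replicate 5 at 28 days lies lowest of its group for Glul, at 10.82.

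Among the feedback regulators, Axin2, a scaffold of the destruction complex and a widely used readout of beta-catenin activity, differed little between PB and CMC livers. Its 5 values ranged over 5.59 to 6.39 in PB and 5.51 to 6.59 in CMC livers at 28 days, and over 5.44 to 6.40 in PB and 5.79 to 6.43 in CMC livers at 90 days. The difference was 0.08 ± 0.21 log2 units at 28 days and -0.01 ± 0.21 at 90 days (SE), and the 95% interval of the averaged effect ran from -0.28 to 0.35. The ranges of the 2 treatments overlapped nearly whole at both durations.

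Lgr5, the R-spondin receptor that marks the hepatocytes next to the central vein, was measured by a dim probe set, 1.65 to 2.44 log2 units above the 25th percentile of its arrays by group mean. At 28 days it read 6.14, 5.68, 5.23, 6.20 and 5.49 in PB livers, against 6.29, 6.26, 6.17, 6.22 and 6.45 in CMC livers. Of the PB values 4 lay below all 5 CMC values, and the highest PB value, 6.20, lay within the CMC range. At 90 days Lgr5 read 6.57, 7.03, 5.10, 5.79 and 5.82 in PB livers, against 5.75, 6.55, 6.85, 6.22 and 6.84 in CMC livers, and the ranges overlapped throughout. The difference was -0.53 ± 0.29 at 28 days (unadjusted p = 0.0770) and -0.38 ± 0.29 at 90 days (unadjusted p = 0.199), with an averaged effect of -0.46 ± 0.20 (limma adjusted p = 0.720). Without the 2 PB arrays that stood apart the 90-day difference was -0.14 and the averaged one -0.30, and their part in the result was not tested further.

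Tbx3, a T-box transcription factor induced by beta-catenin in pericentral hepatocytes, had its larger difference at 90 days. At 90 days it read 6.71, 7.49, 5.61, 6.36 and 6.92 in PB livers, against 7.23, 8.01, 8.63, 6.82 and 7.14 in CMC livers. At 28 days it read 6.75, 6.43, 6.73, 7.52 and 5.88 in PB livers, against 5.99, 6.99, 6.10, 6.94 and 8.31 in CMC livers. The groups overlapped at both durations, and the CMC livers were spread widely at 28 days, with replicate 5 far above the other 4. The difference was -0.95 ± 0.43 at 90 days (unadjusted p = 0.0395, limma adjusted p = 0.816) and -0.20 ± 0.43 at 28 days, and the difference between the 2 effects was not called (-0.75 ± 0.61, unadjusted p = 0.236). With all probe sets of Tbx3 averaged the 90-day difference was -0.38, and with the first principal component as a covariate it was -0.55.

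Glul, glutamine synthetase, is confined to the last hepatocytes around the central vein and takes up ammonia that the urea cycle has left. At 28 days it read 12.26, 12.06, 11.98, 12.07 and 10.82 in PB livers, against 11.98, 12.43, 11.84, 12.26 and 12.44 in CMC livers. At 90 days it read 12.31, 12.70, 11.55, 11.92 and 12.03 in PB livers, against 12.05, 12.63, 12.56, 12.20 and 12.41 in CMC livers. The lowest value in each PB group belonged to the array that stood apart on the first component. The difference was -0.35 ± 0.24 at 28 days and -0.27 ± 0.24 at 90 days, with an averaged effect of -0.31 ± 0.17 and a 95% interval of -0.66 to 0.05 (limma adjusted p = 0.720). Without those 2 arrays it was -0.10 at 28 days, -0.13 at 90 days and -0.11 on average, and with the first component as a covariate the 90-day difference was -0.0013.

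Oat, ornithine aminotransferase, feeds ornithine carbon into glutamate and glutamine in pericentral hepatocytes. At 90 days it read 11.76, 12.08, 10.94, 11.75 and 11.78 in PB livers, against 11.79, 12.48, 12.49, 12.39 and 12.42 in CMC livers. All CMC values except the 11.79 of replicate 1 lay above every PB value. At 28 days it read 11.73, 11.63, 10.51, 11.01 and 10.62 in PB livers, against 11.88, 12.11, 10.88, 11.09 and 12.24 in CMC livers. The difference was -0.65 ± 0.29 at 90 days (unadjusted p = 0.0367, limma adjusted p = 0.816) and -0.54 ± 0.29 at 28 days (unadjusted p = 0.0762). The averaged effect was -0.59 ± 0.20, a fold of 0.663 with a 95% interval of 0.493 to 0.890 (unadjusted p = 0.00873), and it failed the correction over all genes (limma adjusted p = 0.597). It was -0.44 without the 2 arrays that stood apart, -0.46 with the first component as a covariate, and below 0 in every one of the alternatives tried.

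Of the transporters around glutamine synthesis, Slc1a2 is the glutamate carrier GLT-1 and Rhbg an ammonia channel of the Rhesus family. At 90 days Slc1a2 read 6.97, 7.12, 7.07, 7.30 and 7.21 in PB livers, against 6.89, 7.83, 7.65, 7.90 and 7.67 in CMC livers. As for Oat, CMC replicate 1 was low and the other 4 CMC values lay above all PB values. The difference was -0.46 ± 0.22 at 90 days (unadjusted p = 0.0514) and -0.02 ± 0.22 at 28 days, where Slc1a2 ranged over 6.68 to 7.84 in PB and 7.00 to 7.57 in CMC livers. The difference between these effects was not called (-0.44 ± 0.31, unadjusted p = 0.176). Rhbg pointed the other way at 90 days, with 8.34, 8.46, 7.72, 8.01 and 7.95 in PB livers, against 7.46, 7.62, 8.19, 7.40 and 7.82 in CMC livers. Its difference was 0.40 ± 0.19 at 90 days (unadjusted p = 0.0522, limma adjusted p = 0.816) and 0.01 ± 0.19 at 28 days. The 2 ranges of Rhbg overlapped at 90 days: CMC replicate 3 at 8.19 stood above 3 of the PB mice, and CMC replicate 5 at 7.82 stood above PB replicate 3 at 7.72.

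Cyp2e1, the ethanol-oxidising P450 of the pericentral zone, had the narrowest intervals of the 10 members, at a very bright signal, where differences can be compressed near saturation. It ranged over 13.98 to 14.72 in PB and 14.28 to 14.67 in CMC livers at 28 days, and over 14.38 to 14.69 in PB and 14.62 to 14.74 in CMC livers at 90 days. The difference was -0.04 ± 0.12 at 28 days and -0.08 ± 0.12 at 90 days, and the 95% interval of the averaged effect ran from -0.23 to 0.11. The lowest values were again those of PB replicate 5 at 28 days and PB replicate 3 at 90 days. Slc13a3, a sodium-dependent dicarboxylate carrier, had the largest SD of the members in 3 of the 4 groups, all but CMC at 90 days, where Tbx3 had it. It ranged over 5.32 to 7.97 in PB and 6.11 to 9.27 in CMC livers at 28 days, and over 5.90 to 8.85 in PB and 7.22 to 8.47 in CMC livers at 90 days. Its difference was -0.16 ± 0.58 at 28 days and -0.25 ± 0.58 at 90 days, and the 95% interval of the averaged effect ran from -1.06 to 0.65.

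Lect2, a secreted protein of hepatocytes and a beta-catenin target in mouse liver, had the largest positive difference among the members. At 90 days it read 12.12, 12.01, 12.30, 12.21 and 11.95 in PB livers, against 11.08, 11.43, 11.43, 11.09 and 11.36 in CMC livers. All 5 PB values lay above all 5 CMC values, which 0.635% of all genes tested did in this direction; no other member separated the groups at 90 days (1.07% of all genes in either direction), and none did at 28 days (0.542%). At 28 days it read 11.97, 12.35, 11.45, 11.63 and 12.74 in PB livers, against 11.80, 11.01, 12.41, 11.56 and 11.15 in CMC livers, and the ranges overlapped. The difference was 0.84 ± 0.24 at 90 days, a fold of 1.79 with a 95% interval of 1.27 to 2.54 (unadjusted p = 0.00217, limma adjusted p = 0.562). It was 0.44 ± 0.24 at 28 days (unadjusted p = 0.0789), and the effects at the 2 durations were not called different (0.40 ± 0.34, unadjusted p = 0.254).

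Whether Lect2 passed the test depended on which arrays entered the model. In the fit of all 4 groups its averaged effect was 0.64 ± 0.17 (unadjusted p = 0.00113, limma adjusted p = 0.293). When only the 10 livers of the 90-day groups entered the model, where the SD of Lect2 was 0.14 in PB and 0.18 in CMC livers, against 0.53 in PB and 0.56 in CMC livers at 28 days, the same difference of 0.84 was called (limma adjusted p = 0.0161, 0.131% of all genes called). Without CMC replicate 3 at 28 days, the highest CMC liver at 12.41, the averaged effect was 0.75 and was called (limma adjusted p = 0.0413, 0.212% of all genes called). Over all alternatives tried the 90-day difference lay between 0.64 and 0.94, and its limma adjusted p was 0.0161 at the lowest and 0.199 or above in every other one. Without the 2 arrays that stood apart it was 0.80 at 90 days and 0.27 at 28 days.

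**Figure D2:**
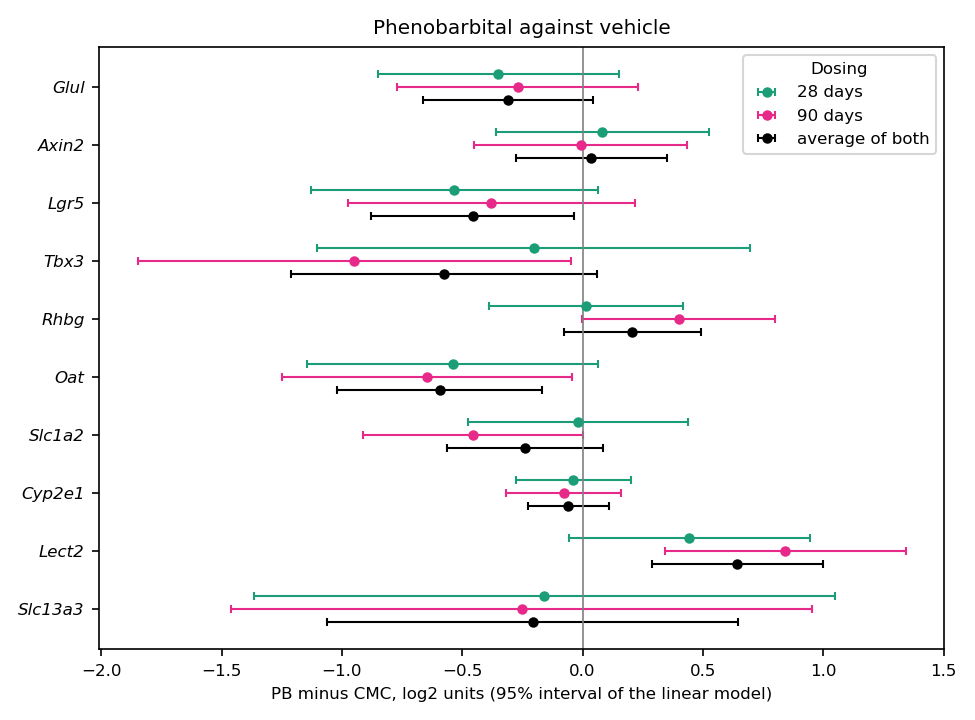
PB minus CMC in log2 units for each member (points) with the 95% interval of the 4-group linear model (bars), at 28 days, at 90 days and averaged over both. The interval of Lect2 lies above 0 at 90 days (0.34 to 1.34) and those of Tbx3 (-1.85 to -0.05) and Oat (-1.25 to -0.04) below 0, while none of the 3 has an adjusted p under 0.05.

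The 90-day and 28-day groups were compared within the vehicle and within the treated mice. These groups may also differ in animal age and batch, which cannot be told apart from time on study. In CMC livers 0 of 10 members were called between 90 and 28 days (0% of all genes), and Oat had an unadjusted p under 0.05 (2.03% of all genes were higher at an unadjusted p under 0.05). Oat averaged 12.31 ± 0.30 at 90 days and 11.64 ± 0.62 at 28 days, a difference of 0.67 ± 0.29 (limma adjusted p = 0.636). Tbx3 and Slc13a3 differed by 0.70 ± 0.43 and 0.75 ± 0.58. Of the 10 members 9 had a positive difference, where 54.2% of all genes had a negative one. As members varied together among mice, these signs are not independent. The median of the members was 0.17, against -0.03 over all genes. In PB livers 0 of 10 members were called (0.00623% of all genes), and Rhbg, with 8.10 ± 0.30 at 90 days and 7.69 ± 0.31 at 28 days, differed by 0.41 ± 0.19 (unadjusted p = 0.0463, limma adjusted p = 0.971, 1.96% of all genes higher at that level). The treatment effects at 90 and 28 days differed for 0 of 10 members (0% of all genes called), and 0 had an unadjusted p under 0.05, where 1.38% of all genes did. These time comparisons share their groups with the treatment comparisons. Markers of other cells were also compared over time, and 0 of the Kupffer and neutrophil markers were called in CMC or PB livers. All 5 Kupffer markers were below 0 between 90 and 28 days, as were 49.7% of all genes in PB and 54.2% in CMC livers. The Kupffer median was -0.93 in PB and -0.61 in CMC livers, against 0.00 and -0.03 over all genes. The 3 neutrophil markers had medians of -0.46 in PB and -0.85 in CMC livers, with 2 of 3 below 0 in PB and 3 of 3 in CMC livers. The part of these cells in the members' time differences was not tested.

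The probe sets of a gene did not always move together. Of the 24 probe sets 22 exceeded the 25th percentile on at least 5 arrays and were tested singly, and 0 were called at 28 days (0.0336% of the 35662 tested) or at 90 days (0.0645%). The second probe set of Glul differed by -0.11 at 28 days and -0.24 at 90 days, the same sign as the one that stood for the gene. The second probe set of Lgr5, only 0.17 to 0.31 log2 units above the 25th percentile by group mean, differed by 0.05 and 0.06, opposite in sign to the first. For Tbx3 the probe set with the suffix _x_at differed by -0.73 at 90 days, and 2 others by -0.29 and -0.04. Of the 5 probe sets of Slc1a2, 4 differed by -0.46 to -0.11 at 90 days and 1 by 0.26. Slc13a3 was represented by an _x_at probe set, a kind that may bind related transcripts, and its other 3 probe sets differed by -0.09 to 0.10 at 90 days. Between 90 and 28 days the second probe set of Glul differed by 0.65 in CMC livers (limma adjusted p = 0.672). In PB livers it differed by 0.52 (limma adjusted p = 0.982). The probe set that stood for Glul differed by 0.18 and 0.26. The 5 probe sets of Slc1a2 differed with time by -0.33 to 0.49 in CMC and -0.52 to 0.48 in PB livers.

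Among mice of the same group the members varied together. Over the 20 livers, taken as deviations from their group means, 28 of 45 pairs were correlated at an adjusted p under 0.05 by permutation within groups, 26 of them positively. The smallest absolute r among these was 0.441; 34 of the 45 member pairs (75.6%) reached it, and so did 38.4% of all pairs of tested genes, of which 51.4% were positive. Leaving Lect2 aside, all 36 pairs of the other 9 members had a positive r, from 0.12 to 0.89. Glul and Cyp2e1 had the highest, r = 0.89 (permutation p = 2e-05, adjusted over 45 pairs p = 0.00045) with Spearman's rho = 0.77 (permutation p = 9e-05), and r = 0.74 without the 2 livers farthest from the median of Glul. Axin2 and Tbx3 had r = 0.82 (permutation p = 7e-05, adjusted p = 0.00105) with rho = 0.83 (permutation p = 0.00012), and r = 0.74 without the 2 livers farthest from the median of Axin2. Lect2 ran against the rest: 8 of its 9 correlations were negative, and those with Cyp2e1 (r = -0.69, permutation p = 0.00751, adjusted p = 0.0141, rho = -0.53, permutation p = 0.0386) and Glul (r = -0.55, permutation p = 0.0173, adjusted p = 0.0299, rho = -0.44, permutation p = 0.0765) were called. Without the 2 livers farthest from the median these correlations were -0.35 for both genes.

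**Figure D3:**
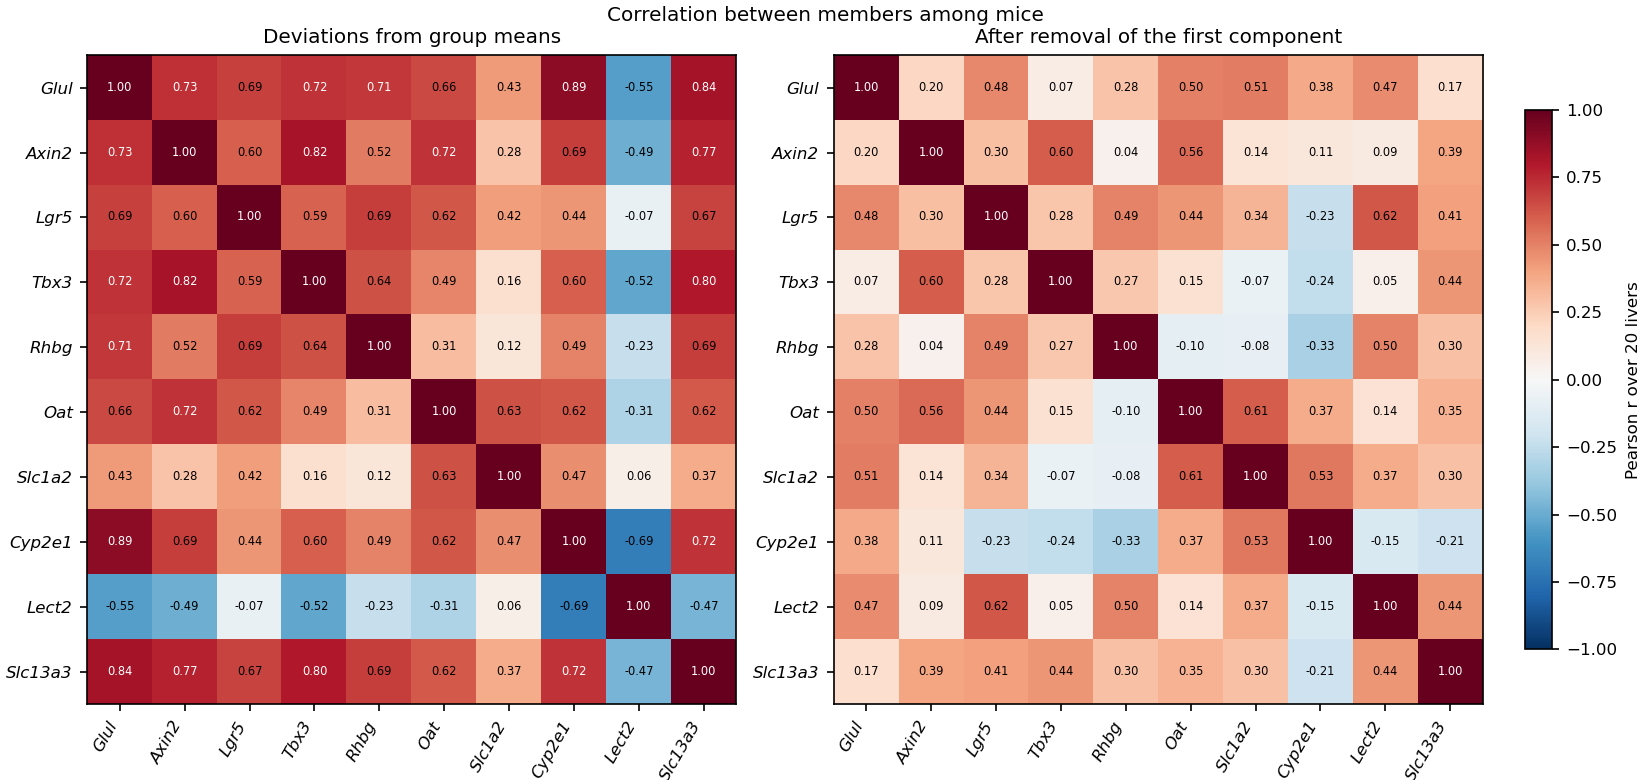
Pearson r between members over 20 livers, as deviations from the group means (left) and after the first principal component of all genes was also removed (right). On the left, 36 pairs without Lect2 are positive, and on the right the median r is 0.30, against 0.60 on the left.

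Most members, like most genes, were correlated with the first principal component of all genes, and the median absolute r over all genes tested was 0.616. The deviations of Glul correlated with the component at r = 0.93 (permutation p = 2e-05, adjusted over 10 members p = 6.67e-05) and rho = 0.87 (permutation p = 1e-05, the smallest that 100000 permutations can give), and at r = 0.85 without the 2 arrays that stood apart. Cyp2e1 had r = 0.89, Slc13a3 0.86, Tbx3 0.75, Axin2 0.73, Rhbg 0.68, Lgr5 0.59, Oat 0.54 and Slc1a2 0.27, and Lect2 had -0.72. Lgr5, Oat and Slc1a2 thus lay below the median of all genes. After removal of the component 0 of the 45 pairs were called, with 10 at an unadjusted permutation p under 0.05, and the correlations of Lect2 with Glul and Lgr5 were then 0.47 and 0.62, against -0.55 and -0.07 before. Without the 2 arrays that stood apart, and with the component kept, 12 pairs were called. The component is built from all tested genes, the members among them, and what sets it was not tested.

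**Figure D4:**
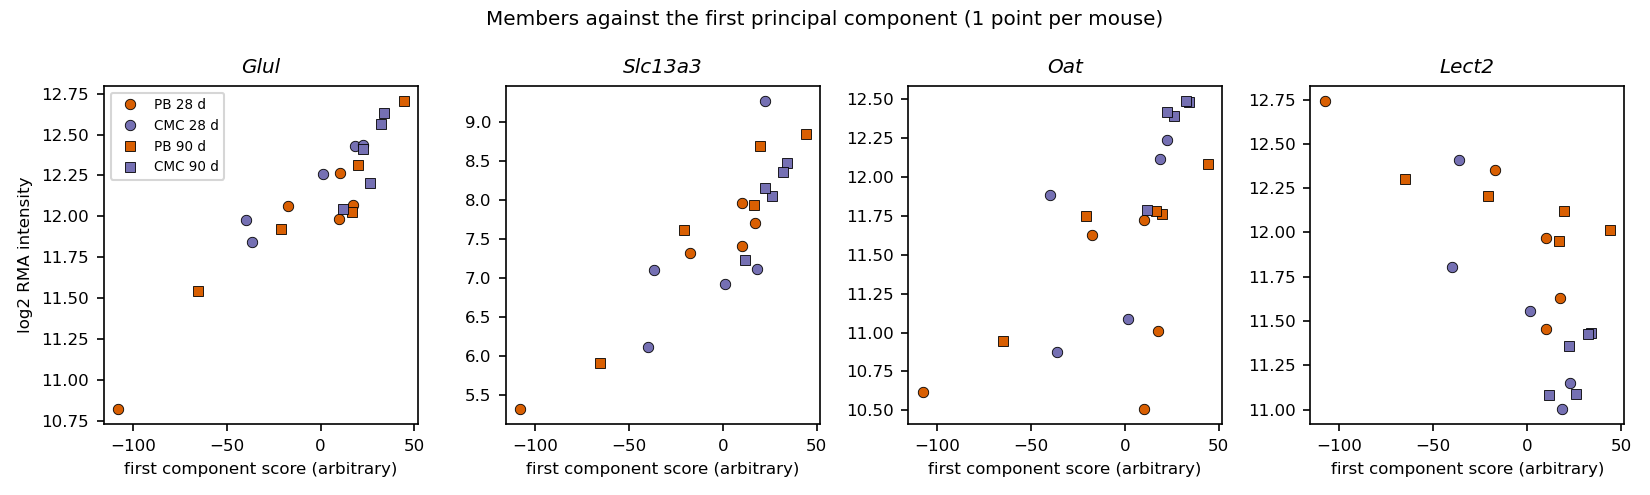
Log2 RMA intensity of Glul, Slc13a3, Oat and Lect2 in each mouse against its score on the first principal component (arbitrary units, circles 28 days, squares 90 days). Glul and Slc13a3 fall towards low scores, where PB replicate 5 at 28 days lies at -107.9, while Lect2 is highest there, at 12.74.

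The 2 genes outside the 10 whose deviations were most like those of Glul were Fgfr4, a receptor for FGF15 in hepatocytes, and Aup1, a protein of the endoplasmic reticulum and lipid droplets. Fgfr4 had r = 0.97 with Glul over 20 livers and 0.96 without the 2 livers farthest from the median, and Aup1 had 0.96 and 0.91. After removal of the first component these were 0.81 and 0.63. The pair was picked as the maximum over all genes, so these values describe the likeness and carry no test.

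The rest of the pathway gave no call either, from ligand to nucleus. Of 13 ligands, R-spondins and secretion factors 11 were tested and 0 were called in any treatment comparison. At 90 days 10 had a positive difference, and 43.8% of all genes had a negative one. The list median was 0.23, against 0.03 over all genes. Wnt2 differed by 0.23 at 90 days and -0.13 at 28 days, Wnt9b by 0.15 and 0.28, and Rspo3 by 0.40 and 0.02, the 3 signals known from central vein endothelium, and Wnt5a had the smallest averaged p of the list (0.24 ± 0.09, unadjusted p = 0.0162, limma adjusted p = 0.680). Wnt5a was dim, lying 0.82 log2 units above the 25th percentile on average, where RMA can compress differences. The 6 secreted inhibitors tested of 9 had 0 calls, and Sfrp5, which binds Wnt ligands, differed by 0.20 on average. All 6 were above 0 at 28 days, at 90 days and on average. Their medians were 0.10, 0.11 and 0.10, against 0.00, 0.03 and 0.02 over all genes.

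Among 18 receptors and their ligases 0 were called, and 11 were below 0 at 90 days with a median of -0.09. Of all genes 43.8% were below 0 at 90 days. Rnf43 and Znrf3, ubiquitin ligases that remove Frizzled receptors and are themselves Wnt targets, differed by -0.59 ± 0.29 (unadjusted p = 0.0540) and -0.41 ± 0.27 on average, and the R-spondin receptor Lgr4 by -0.16 ± 0.22. Of 15 genes for beta-catenin, its destruction complex and Dishevelled, 0 were called and 13 were below 0 at 90 days, with a median of -0.18. In this list Ctnnb1, which encodes beta-catenin itself, differed by -0.31 at 90 days and -0.13 at 28 days, Apc by -0.71 and -0.07, and Gsk3b by -0.81 and -0.54, all with an unadjusted p above 0.05. Between 90 and 28 days 13 of these 15 genes were above 0 in CMC livers (median 0.28) and 10 in PB livers (median 0.16). Of 9 TCF/LEF factors and cofactors tested 0 were called. Tcf7l2, the main TCF of the liver, averaged -0.58 ± 0.33 and Bcl9l, a cofactor of beta-catenin, -0.29 ± 0.12 (unadjusted p = 0.0292, limma adjusted p = 0.720).

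**Figure D5:**
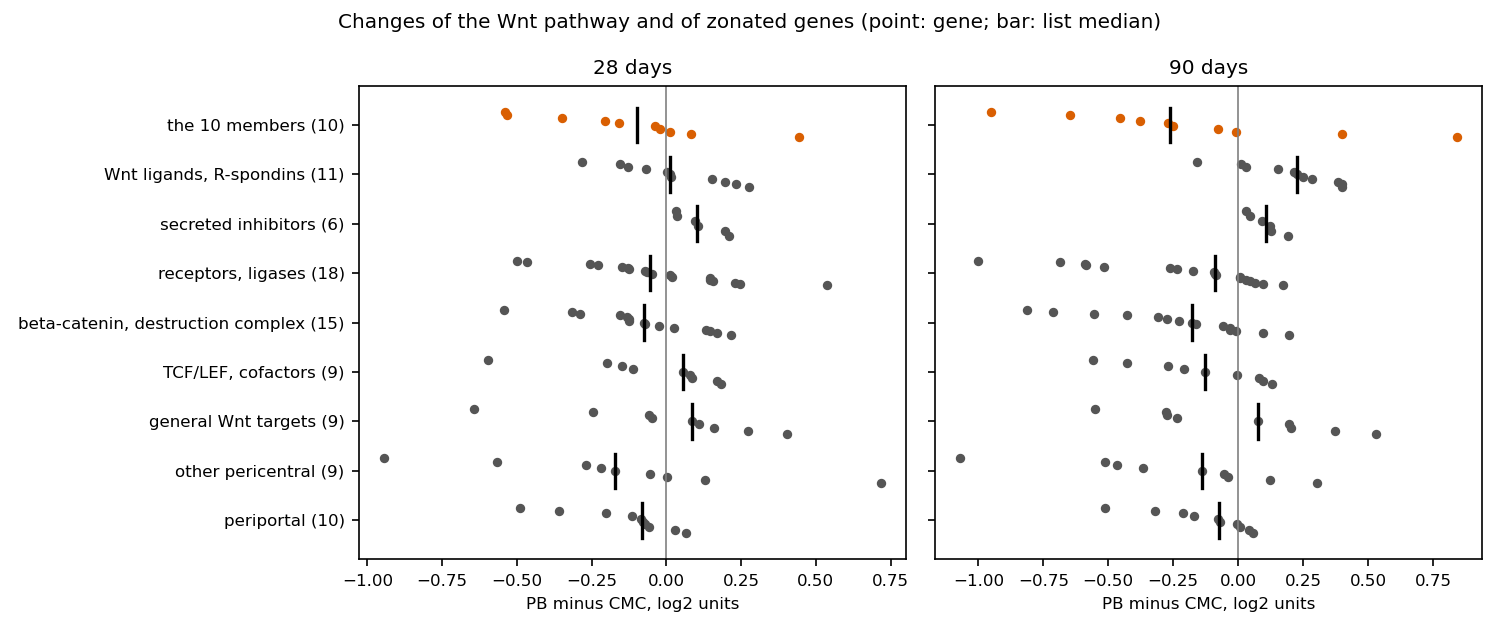
PB minus CMC in log2 units at 28 days (left) and 90 days (right) for each tested gene (points) of the 10 members and of the pathway and zonation lists, with list medians (bars). At 90 days the ligand list has a median of 0.23 and the list of beta-catenin and its destruction complex one of -0.18, and no gene shown is called.

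General Wnt targets that are not specific to the central vein had 0 calls among 9 tested. Nkd1, an antagonist of Dishevelled induced by Wnt signalling, had the smallest p of the averaged effect among the pathway genes examined outside the members. It differed by 0.27 at 28 days, 0.37 at 90 days and 0.32 ± 0.09 on average (unadjusted p = 0.00197), and it failed the correction (limma adjusted p = 0.385). Of 9 other pericentral genes tested 0 were called, with a median of -0.17 at 28 days and -0.14 at 90 days. Cyp7a1, the rate-limiting enzyme of classical bile acid synthesis, had the smallest p there and averaged -1.01 ± 0.35 (limma adjusted p = 0.597). Of 10 periportal genes tested 0 were called, with medians of -0.08 and -0.07, and Arg1, arginase, averaged -0.14 ± 0.07. The lists of both zones had negative medians, as the members had.

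Markers of other liver cells were measured beside the members. The 5 markers of central vein endothelium gave 0 calls, with mean levels of 5.66 to 6.25 in PB and 5.55 to 6.34 in CMC livers at 28 days, and of 5.47 to 6.15 in PB and 5.44 to 5.79 in CMC livers at 90 days. Of these 5 markers 4 were above 0 at 28 days (median 0.02), 5 at 90 days (0.31) and 5 on average (0.20). At 90 days 1 was higher at an unadjusted p under 0.05, where 3.15% of all genes were. Wnt9b had the smallest averaged p of this list (0.22 log2 units). Markers of sinusoidal endothelium, stellate cells, Kupffer cells, bile duct cells and lymphocytes also gave 0 calls at either duration. On average 4 of 6 sinusoidal markers were above 0 (median 0.10), 5 of 7 stellate (0.09), 2 of 5 Kupffer (-0.12), 3 of 4 bile duct (0.08) and 5 of 5 lymphocyte markers (0.13), and 1 of 4 hepatocyte markers (-0.05). Over all genes 44.2% were below 0 on average. Kupffer markers had 4 of 5 above 0 at 28 days (median 0.17) and 0 of 5 at 90 days (median -0.28). At 90 days 2 of these markers were lower at an unadjusted p under 0.05, where 1.38% of all genes were. The smallest averaged p in each list belonged to Lyve1 (0.56 log2 units), Col1a1 (0.18), Marco (-0.49, unadjusted p = 0.00333), Epcam (0.12), Cd8a (0.20) and Tat (-0.65). Of 3 neutrophil markers measured 1 was called at 90 days and 0 at 28 days: S100a8, a calcium-binding protein, rose by 6.28 at 90 days (limma adjusted p = 0.0163), while S100a9 differed by -0.01 and Mpo by -0.09. The mean level of these 3 ranged over 6.66 to 8.29 in PB and 5.43 to 6.43 in CMC livers at 28 days, and over 5.14 to 8.04 in PB and 5.00 to 5.53 in CMC livers at 90 days. The part of any of these cells in the members' values was not tested.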

How the data were processed

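The deposited table held log2 signal intensities that the authors made with RMA, per the submitters' processing notes; its version was not given in the sources used here. RMA corrects background, equalises array distributions and combines the probes of a probe set. Differences can be compressed near background and near saturation. Of 45037 probe sets 34945 had 1 gene symbol in the platform annotation, 932 several and 9160 none, and the probe set with several symbols that include Slc1a2 was left out. Of the probe sets with 1 symbol, 34741 matched the RefSeq gene table by Entrez identifier and 204 did not, with 0 symbols changed. The probe set with the highest mean stood for its gene. Genes above the 25th percentile of an array (3.96 to 4.26) on 5 or more arrays were tested, 16054 in all, and 2139 were not. All 10 members passed.

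Groups came from the sample titles. A model with 1 mean per group was fitted over all 20 arrays in limma 3.58.1 under R 4.3.3 (16 residual degrees of freedom, intensity trend), with Benjamini-Hochberg adjustment over all genes tested. Changes are PB minus CMC with the model's SE or 95% interval, and tests were two-sided. Correlations used deviations from group means, 100000 permutations within groups in Python 3.11.15 with numpy 2.4.6 and scipy 1.17.1, and adjustment over 45 pairs of members or, against the principal component, over the 10 members. The model was run on simulated data with residuals dealt out at random over arrays, and known changes were recovered on average. That check set no limit on false calls and did not keep the different SDs of the groups. The precision is limited by the number of arrays.

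The members and all gene lists were chosen with earlier results of these data known. The genes named were the members, a fixed set of pathway genes (Ctnnb1, Tcf7l2, Wnt2, Wnt9b, Rspo3, Lgr4, Rnf43, Znrf3, Apc, Cyp2b10, Cyp2c55), each list's called genes or else the gene with the smallest averaged p, and the genes most correlated with Glul. Other genes named as comparisons within a list, S100a9 and Mpo, were added after their values were seen. Alternatives covered the filter, the choice of probe set, the variance prior, the groups in the fit, array weights, scaling, the first principal component, the replicate number as a block and removal of arrays, with each gene's probe set held fixed where arrays were removed or cyclic loess was applied.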

Additional observations from a re-analysis of the deposited data

Results flagged for a closer look

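Of the 40 groups of 5 livers examined, 4 groups for each of the 10 members, 6 held a liver far from the other 4 of its group. For independent groups chance gives about 1 in 20. These groups reuse the same 20 arrays over correlated members, so 6 of 40 cannot be set against that rate. PB replicate 5 at 28 days was the lowest liver for Glul at 10.82 log2 units (next 11.98), for Cyp2e1 at 13.98 (next 14.58) and for Slc13a3 at 5.32 (next 7.32). PB replicate 3 at 90 days was the lowest for Cyp2e1 at 14.38 (next 14.66). These are the 2 arrays at the low end of the first principal component, at -107.9 and -65.2, and their part in these values was not tested. CMC replicate 1 at 90 days was the lowest for Oat at 11.79 (next 12.39) and for Slc1a2 at 6.89 (next 7.65), and its score of 11.68 on that component was the lowest of its group.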

How the results depend on the processing

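The alternatives were run on the 30 changes of the members and on the counts of calls, 12 for the single durations and 11 for the averaged effect, which a fit of only the groups compared does not give. Of the 30 changes 18 kept their sign in all of these and with each of the 20 arrays left out in turn, among them all changes of Glul, Lgr5, Oat and Lect2, and 12 did not. The number of members called was 0 in each treatment comparison under each alternative run except 2: 1 at 90 days, Lect2, when only the groups compared entered the fit (0.131% of all genes called), and 0 to 1 on average with 1 array left out, the 1 being Lect2 without CMC replicate 3 at 28 days (0.212% of all genes). Correlated pairs numbered 28, 0 with the first component removed and 12 without the 2 arrays that stood apart. At 28 days Slc1a2 turned to 0.065 with array weights, 0.029 with centring on the 75th percentile, 0.024 with cyclic loess, 0.0078 with the component as a covariate and 0.11 without the 2 arrays; Cyp2e1 was 0.037, 0.0095, 0.00965 and 0.095 with weights, centring, the component and without the 2 arrays; and Slc13a3 was 0.21, 0.094 and 0.30 with weights, the component and without the 2 arrays. At 90 days Axin2 was 0.15, 0.086, 0.18 and 0.17 with weights, centring, the component and without the 2 arrays, Cyp2e1 0.014 and 0.040 with centring and the component, and Slc13a3 0.052 with no _x_at or _s_at probe sets, 0.038 with weights, 0.37 with the component and 0.22 without the 2 arrays. On average Axin2 was -0.00186 with all probe sets averaged, Cyp2e1 0.012, 0.025 and 0.038 with centring, the component and without the 2 arrays, and Slc13a3 0.026, 0.12, 0.23 and 0.26 without _x_at or _s_at probe sets, with weights, the component and without the 2 arrays. With 1 array left out, the 28-day change ranged from -0.042 to 0.23 for Axin2, -0.42 to 0.16 for Tbx3, -0.064 to 0.14 for Rhbg, -0.17 to 0.12 for Slc1a2, -0.11 to 0.095 for Cyp2e1 and -0.46 to 0.33 for Slc13a3. The 90-day change ranged from -0.10 to 0.17 for Axin2 and -0.51 to 0.22 for Slc13a3, and the averaged one from -0.025 to 0.12 for Axin2, -0.093 to 0.0077 for Cyp2e1 and -0.36 to 0.039 for Slc13a3. Centring on the 75th percentile moved the median of all genes at 90 days to 0.13, against 0.03. Over all genes, calls at 28 days numbered 8, 17 with array weights, 17 with the component and 4 in a fit of those groups alone; averaged they numbered 34, 51 with the component. The cause of these shifts was not tested. With the replicate number as a block 0 members were called in each comparison; same-numbered PB and CMC livers correlated at -0.60 to 0.36, so the numbers were not taken as pairs. Differences can be compressed at dim signals, such as those of Lgr5 and Axin2, and at very bright ones, such as that of Cyp2e1. Compression was not measured for any member.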
